A study of Drosophila melanogaster with 3 samples.

Results

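The ETS-family transcription factor Ets65A was mapped in fly embryos through a GFP fusion. Chromatin immunoprecipitation followed by sequencing (ChIP-seq) gave 28940 peaks when the 3 replicates were called together. The peaks described here are the weaker ones in introns and intergenic DNA: pooled peaks that overlap no peak of the authors' reproducible list (filtered by irreproducible discovery rate, called IDR peaks from here on), whose summit lies more than 500 bp from all protein-coding transcription start sites (TSSs) and in no exon. There were 13938 such peaks, 48.2% of the pooled list. They were selected on measured values: the IDR list is filtered by agreement between replicates, and in these places signal alone separates it from the weaker peaks. Their low scores and incomplete replicate support are therefore given as a description and not as a finding. The same places held 1054 IDR peaks, and weaker pooled peaks numbered 6271 at promoters and 4022 in coding exons.

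All samples were whole embryos of Drosophila melanogaster aged 0 to 24 h, males and females pooled, of the transgenic strain ets3-GFP, which stably carries Ets65A with GFP at its C-terminus. The labels do not give the promoter of the transgene, and a single fly line was used; a pool of all cell types and of a whole day of development cannot say in which cells a peak arose. Chromatin was sheared by sonication to 200 to 800 bp and precipitated with an antibody to GFP, although the antibody field names Ets65A. The 3 biological replicates form 1 group, so no groups of samples were compared, and peak lists hold no reads, so the depth of each library is unknown here.

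Proteins of the ETS family bind DNA through a winged helix domain that recognises a GGAA core. In flies the family includes pointed and anterior open (aop, also called yan), which switch target genes on and off below receptor tyrosine kinases. Enhancers, the elements that set when and where a gene is used, often lie in introns, above all in first introns, and between genes. A relaxed peak list such as a pooled list is made to hold many uncertain calls, so that the ranking of peaks can be compared between replicates; the entries below the reproducible set can hold weak binding as well as background.

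Replicate 1 stood apart from the others, and the values of each replicate are given where they differ; counts of gaps and runs are of pooled peaks. By the same rule, its own list held 15962 peaks in introns and intergenic DNA, against 14333 in replicate 2 and 14132 in replicate 3. Its peaks were richer in G and C: the windows of 100 bases to each side of the summit exceeded their flanks by 3.63 percentage points, against 0.89 and 0.034 points in replicates 2 and 3. Across the weaker peaks that a replicate's list also held, the log2 signal correlated with the pooled log2 signal at r = 0.382 in replicate 1 (7259 peaks), 0.603 in replicate 2 (8833 peaks) and 0.538 in replicate 3 (8377 peaks). The pooled values contain the reads of each replicate, so these r describe the lists and carry no test. Large genes without any weaker pooled peak also set replicate 1 apart. In Pzl, which encodes a mechanically gated Piezo-like channel and has 630.5 kb of DNA that meets the positional rule, replicate 1 alone listed 27 peaks, replicate 2 listed 1 and replicate 3 listed 0. In lovit, a histamine transporter gene, the counts were 23, 1 and 0, and in dpr21, which encodes an immunoglobulin-type surface protein, they were 20, 0 and 0. All 3 genes lie towards an end of their chromosomal arms. Whether the counts go with this position or with the kind of gene was not tested.

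Sequences from both ends of the signal range are shown first, chosen by signal and q and not by the words they hold. Each reaches 100 bases to either side of the summit and is read 5′ to 3′ on the plus strand of the dm6 genome, from the RefSeq sequence of that build. The first 6 are the weaker peaks of highest signal, all of them present in every replicate's list, and the last 2 are those of lowest −log10 q. Capitals mark the 5-base word CACTG or its reverse complement CAGTG, which leads the word counts given further on, and the ETS cores CCGGAA and CAGGAA on either strand.
Pvf3 intron, chr2L:7154976-7155176: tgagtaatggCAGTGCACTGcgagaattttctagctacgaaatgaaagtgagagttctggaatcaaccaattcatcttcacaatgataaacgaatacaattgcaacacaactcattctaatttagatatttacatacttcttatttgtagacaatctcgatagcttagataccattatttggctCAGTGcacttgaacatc
hth intron, chr3R:10564328-10564528: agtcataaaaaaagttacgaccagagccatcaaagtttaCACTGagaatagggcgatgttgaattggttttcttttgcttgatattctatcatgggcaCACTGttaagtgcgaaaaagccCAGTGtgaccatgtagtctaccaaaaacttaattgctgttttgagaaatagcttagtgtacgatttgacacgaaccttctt
hng3 intron, chr3L:745692-745892: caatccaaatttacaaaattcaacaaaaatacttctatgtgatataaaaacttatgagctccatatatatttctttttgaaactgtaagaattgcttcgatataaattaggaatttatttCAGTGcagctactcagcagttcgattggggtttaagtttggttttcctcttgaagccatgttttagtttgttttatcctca
wake intron, chr3R:22667659-22667859: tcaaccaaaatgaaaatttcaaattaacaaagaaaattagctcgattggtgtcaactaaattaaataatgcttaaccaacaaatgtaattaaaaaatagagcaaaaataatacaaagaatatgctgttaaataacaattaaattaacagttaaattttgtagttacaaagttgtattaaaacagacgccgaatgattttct
intergenic near PVRAP, chr3L:5987820-5988020: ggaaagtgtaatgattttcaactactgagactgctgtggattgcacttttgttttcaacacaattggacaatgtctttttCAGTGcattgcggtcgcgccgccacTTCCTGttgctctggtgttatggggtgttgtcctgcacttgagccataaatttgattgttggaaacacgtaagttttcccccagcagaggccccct
Nrg intron, chrX:8538255-8538455: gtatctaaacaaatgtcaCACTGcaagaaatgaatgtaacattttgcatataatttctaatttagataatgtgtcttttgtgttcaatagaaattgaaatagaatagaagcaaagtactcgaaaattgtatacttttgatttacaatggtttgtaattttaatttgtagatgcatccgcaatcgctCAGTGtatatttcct
nmo intron, chr3L:8018571-8018771: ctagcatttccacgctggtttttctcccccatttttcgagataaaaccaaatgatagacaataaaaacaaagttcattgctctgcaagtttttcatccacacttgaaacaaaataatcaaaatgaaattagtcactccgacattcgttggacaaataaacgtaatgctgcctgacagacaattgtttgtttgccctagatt
intergenic near CG17648, chr2L:1753202-1753402: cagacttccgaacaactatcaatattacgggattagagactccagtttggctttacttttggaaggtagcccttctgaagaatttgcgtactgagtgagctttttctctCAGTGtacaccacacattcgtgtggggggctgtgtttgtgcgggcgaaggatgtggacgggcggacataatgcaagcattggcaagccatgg
The Pvf3 and hth windows held 3 copies of the word each, the Nrg window held 2, and the hng3 and PVRAP windows held 1 each. The wake window, with a GC content of 23.4%, held none. Of the peaks of lowest −log10 q, the nmo window held 0 copies and the window near CG17648 held 1. The PVRAP window also held 1 ETS core, CAGGAA on the minus strand, and the other 7 windows held none.

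The authors' signal value (a score of unstated scale) ran from 18.1 to 71.8 in the weaker intronic and intergenic peaks, with a median of 24.3 and quartiles of 20.6 and 31.4. IDR peaks of the same places had a median of 106.9. The deposited −log10 q had a median of 0.198, and 1769 peaks (12.7%) reached a q-value of 0.05 or lower. The selection left a sharp border. The weaker peaks next to it had signals of 71.801 (in Pvf3), 71.7506 (in hth) and 71.7393 (in hng3). The IDR peaks just outside it had 71.8212 (in kirre), 71.8255 (in raskol, a Ras GTPase-activating protein) and 71.8297 (between genes, nearest to PpV, a phosphatase subunit gene).

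The 10 weaker peaks of highest signal lay at genes of varied function. The peak of highest signal sat in an intron of Pvf3, which encodes a ligand of the PDGF and VEGF type for the receptor Pvr, 2619 bp from the TSS, and had replicate signals of 31.6, 24.4 and 22.0 in replicates 1, 2 and 3. Another peak of this rank lay between genes, 9288 bp from the TSS of PVRAP, an adaptor of the same receptor, with 15.4, 24.3 and 24.0. In Pvf3 replicate 1 was the highest of the 3 and near PVRAP it was the lowest.

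In hth, a homeodomain gene whose product is a cofactor of Hox proteins, the replicate signals were 20.03, 27.8 and 25.4, and the peak lay 49848 bp from the TSS. In hng3 the peak was nearest to the TSS of emc, an inhibitor of basic helix-loop-helix factors, at 3608 bp; its replicate signals were 24.8, 26.0 and 24.1. The peak in wake, a regulator of the clock's output to sleep, had 27.4, 29.0 and 17.0. Replicate 1 was the lowest in hth and the middle one in hng3 and wake.

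Other peaks of the first 10 were less even. Nrg, which encodes the L1-type adhesion protein neuroglian, had replicate signals of 9.16, 24.1 and 40.7. At Fim, the gene of the actin-bundling protein fimbrin, they were 12.7, 27.2 and 33.2. At Cow, which encodes a secreted proteoglycan that carries Wingless, they were 11.1, 30.7 and 29.8. In all 3 genes replicate 1 was the lowest. At bbx, a gene for an HMG-box protein, the values were 22.4, 29.95 and 16.8, and at ec, a gene of cell sorting and death in the eye, they were 25.3, 19.9 and 24.6.

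Support by the replicates was partial and followed the pooled signal. Replicate 1 listed a peak at 52.1% of the weaker intronic and intergenic peaks, replicate 2 at 63.4% and replicate 3 at 60.1% (58.5% ± 5.81, SD, n = 3), where an overlap of 1 bp counted. The same lists covered 15.3%, 13.7% and 13.4% of positions that meet the rule, counted as peaks of 390 bp placed at every such base. In all, 2721 peaks (19.5%) were in every list, 5779 (41.5%) in 2 lists, 4748 (34.1%) in 1 list and 690 (4.95%) in none. The product of the 3 shares is 19.8%, close to the share in all lists, and 2.83% of eligible positions were covered by all 3. Within every range of signal, however, the share in all lists was below the product. It was 3.97% against 6.48% below a signal of 20, 14.7% against 22.9% at 25 to 30 and 89.6% against 89.7% at 60 or more. These peaks were called on the pooled reads and IDR peaks were removed. Comparison with the product is therefore no test of whether the lists are independent. Replicates 2 and 3 without 1 supported 21.5% of the peaks, against 11.2% for replicates 1 and 2 without 3 and 8.75% for replicates 1 and 3 without 2.

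Below a signal of 20, 3.97% of 2694 peaks were in every list and 14.0% in none. From 40 to 50, 58.1% of 909 peaks were in every list, and at 60 or more it was 89.6% of 356 peaks. Replicates 2 and 3 listed 84.1% and 80.2% of the 2192 peaks of signal 30 to 40, while replicate 1 listed 58.3%. The pooled signal comes from the same reads, so this course describes the lists. Where a replicate did list a peak, its summit was close to the pooled one, with median distances of 36, 29 and 32 bp in replicates 1, 2 and 3.

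**Figure D1:**
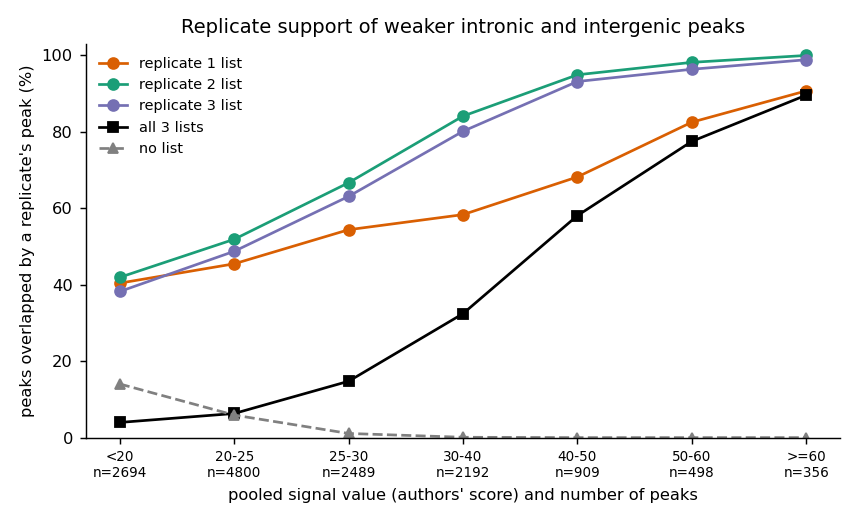
Share of weaker intronic and intergenic peaks (vertical axis, %) that a peak of each replicate's own list overlaps, by pooled signal value (horizontal axis, the authors' score, with the number of peaks). Coloured circles are replicates, black squares peaks in all 3 lists and grey triangles peaks in no list; replicate 1 falls behind replicates 2 and 3 from a signal of 20 upwards, and the share in all lists runs from 3.97% to 89.6%.

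First introns held these peaks most densely. Of the 13938 peaks, 9290 lay in introns (66.7%, 95% Wilson interval 65.9 to 67.4) and 4648 between genes, whereas 59.8% of the 82.9 Mb of eligible DNA, the bases that meet the positional rule, is intronic. First introns of protein-coding transcripts held 5256 peaks, or 24.96 per 100 kb (exact Poisson interval 24.3 to 25.6), other introns 14.1 per 100 kb (13.7 to 14.6) and intergenic DNA 14.0 per 100 kb (13.6 to 14.4). The intervals cover counting error over peaks only. Eligible DNA includes bases that the RefSeq sequence masks as repeats. On unmasked bases alone the densities were 25.3 in first introns, 14.8 in other introns and 15.4 in intergenic DNA. Other introns then fell below intergenic DNA, and first introns stayed the densest. Over the replicates' own lists the share in introns had an SD of 4.92 points (n = 3). In first introns the replicates' own peaks numbered 21.5, 26.1 and 27.8 per 100 kb in replicates 1, 2 and 3, and in intergenic DNA 18.8, 13.9 and 12.6. In other introns they numbered 18.1, 14.8 and 14.3, which in replicate 1 was below its intergenic value. First introns were the densest of the 3 places in every replicate, and the contrast was smallest in replicate 1. IDR peaks were at 2.51, 0.746 and 0.937 per 100 kb in these places.

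Density was lower farther from a start site. It was 26.7 per 100 kb at 500 to 1000 bp from a protein-coding TSS, 20.4 at 2000 to 5000 bp and 6.54 beyond 20 kb. Replicates 2 and 3 gave 28.0 and 30.4 in the nearest interval and 6.26 and 5.70 in the farthest. Replicate 1 gave 19.4 in the nearest interval, 21.7 at 10000 to 20000 bp and 11.7 in the farthest, and so was flat over most of the range. The median peak lay 4429.5 bp from a TSS. Among the chromosome arms, 2L had 19.1 peaks per 100 kb and 3L 18.1, with 15.1 on X, 15.5 on 2R, 16.3 on 3R and 13.2 on the small chromosome 4, where 69 peaks were counted. On chromosome 4 the replicates gave 7.09, 17.3 and 22.8 per 100 kb.

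Weaker peaks gathered around IDR peaks. At 500 to 1000 bp from the edge of an IDR peak their density was 44.1 per 100 kb, at 1000 to 2000 bp 39.98, at 2000 to 5000 bp 31.2, at 5000 to 20000 bp 24.4 and farther out 11.3. Within 500 bp it was 9.89, where peaks of 390 bp have little room, because any overlap with an IDR peak removes them from the set. In all, 22.5% of the weaker peaks lay within 5000 bp of an IDR peak, against 12.04% of eligible bases. The replicates differed here. At 500 to 1000 bp, replicates 2 and 3 had 47.7 and 53.5 of their own peaks per 100 kb, and replicate 1 had 21.3. Beyond 20 kb the order was the opposite, with 11.4 and 9.92 in replicates 2 and 3 and 17.9 in replicate 1.

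**Figure D2:**
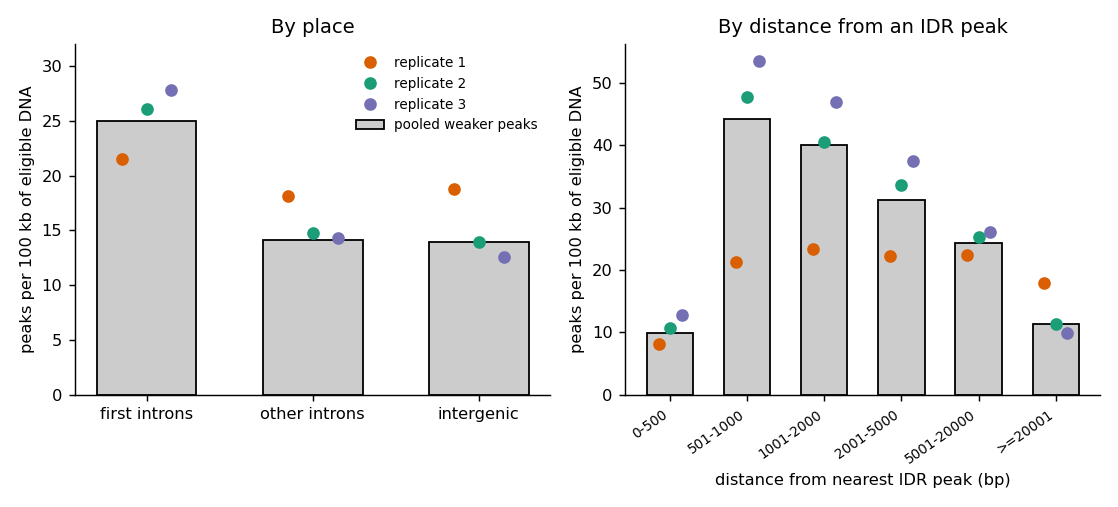
Weaker peaks per 100 kb of eligible DNA (vertical axes) by place, on the left, and by distance from the nearest IDR peak in bp, on the right. Grey bars are the pooled weaker peaks and coloured circles the peaks of each replicate's own list that meet the same rule; the bars reach 24.96 in first introns and 44.1 at 500 to 1000 bp from an IDR peak, and replicate 1 is the flattest of the 3 in both panels.

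Large genes with long introns held the highest counts. Of 13945 protein-coding genes, 2480 (17.8%) had a weaker peak inside them, and among the 1754 genes with at least 5 kb of eligible DNA 1531 (87.3%) had at least 1. In those 1754 genes the median density was 1.90 per 10 kb, with quartiles of 0.962 and 3.24. There were 224 genes with 10 peaks or more and 49 with 20 or more. The highest count was in kirre, which encodes an immunoglobulin protein of muscle founder cells, with 59 peaks over 309.4 kb (52, 69 and 57 in the lists of replicates 1, 2 and 3). Its density of 1.91 per 10 kb was close to the median of all genes. The hth gene had 52 peaks over 119.5 kb (40, 48 and 58), or 4.35 per 10 kb. Ten-a, which encodes a teneurin of synaptic partner matching, had 38 peaks over 236.9 kb, or 1.60 per 10 kb, below that median.

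Receptors of Wnt proteins and an ecdysone-induced nuclear receptor followed. The Frizzled receptor genes fz and fz2 had 36 and 34 peaks, at 4.30 and 4.11 per 10 kb. Eip75B, a nuclear receptor gene induced by ecdysone, had 37 peaks at 4.40 per 10 kb. The lists of replicates 1, 2 and 3 had 19, 34 and 43 peaks in Eip75B, 22, 35 and 36 in fz, and 17, 34 and 34 in fz2, so replicate 1 was the lowest in all 3 genes. Among the 15 protein-coding genes with most peaks, the widest gap between replicates was in bun, which encodes a TSC22-type leucine zipper protein: its 36 pooled peaks stood beside 7, 41 and 40. The others of these 15 were sick (37), Glut4EF and the overlapping CG46467 (34, the same peaks), the KLF-type factor gene luna (33), the splicing regulator genes Rbfox1 (31) and mbl (29), the zinc finger gene jing (30) and the DNA and RNA dioxygenase gene Tet (29).

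Per length, shorter genes came first. Among the genes with at least 10 kb of eligible DNA, Lpin, a phosphatidate phosphatase gene, had 9.82 peaks per 10 kb, PAN3, of the deadenylase complex, 9.78, and Trf2, a TBP-related factor gene, 9.69, each from 10 peaks. The tonalli gene tna, which encodes a SUMO-pathway zinc finger protein, had 26 peaks (8.08 per 10 kb) and tara, a regulator of cell cycle and sleep, had 23 (7.84 per 10 kb). The Trf2 counts in the replicates were 1, 9 and 9, those of hts, the adducin gene, were 1, 10 and 8, and those of tna were 12, 29 and 24. Stat92E, the transcription factor of the JAK/STAT pathway, had 7.38 peaks per 10 kb with 5, 7 and 3. At the other end, 94 of the 1168 genes of this size had no weaker peak.

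Genes bound in the IDR list were denser hosts. Among the genes with at least 5 kb of eligible DNA, those with an IDR summit within 500 bp of a TSS had a median of 3.06 weaker peaks per 10 kb, and those without had 1.66. Summed over the genes, the replicates gave 2.14, 3.09 and 3.41 per 10 kb with such a summit and 1.98, 1.64 and 1.59 without, for replicates 1, 2 and 3. The direction was the same in every replicate, with little difference in replicate 1. IDR peaks and weaker peaks come from the same reads, so the 2 kinds are not independent.

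ETS genes were among the denser groups. All 5 ETS genes with at least 5 kb of eligible DNA held a weaker peak, beside 87.3% of all genes of that size, so the share itself is near the background; of all 8 ETS genes 5 did. Their median was 2.89 per 10 kb beside 1.90 over all genes of that size. Summed over all 8 listed ETS genes, replicates 1, 2 and 3 had 2.21, 3.48 and 3.48 per 10 kb. Over all genes with at least 5 kb they had 2.01, 1.90 and 1.91. Group sums here and below take in every listed gene, also those with less than 5 kb, so the 2 gene sets differ in their size rule. Ets65A itself had 13 peaks over 20.5 kb, 6.33 per 10 kb, with 9, 10 and 7 in replicates 1, 2 and 3 and no IDR peak outside promoters. The repressor gene aop had 9 peaks (5.52 per 10 kb; 2, 12 and 12 in the replicates) and the activator gene pnt 14 (2.89 per 10 kb; 8, 18 and 20). The ecdysone-induced Eip74EF had 14 peaks (2.75 per 10 kb; 13, 11 and 11), and Ets98B had 1. Ets21C, Ets96B and Ets97D had 0, over 2.07, 3.82 and 0.116 kb of eligible DNA. Whether the tagged gene copy adds to the reads at the Ets65A locus was not tested.

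The nuclear receptor, growth factor and neuroblast groups had higher pooled medians than all genes, a contrast that replicate 1 showed least. Shares of genes with a peak are set against 87.3% of all genes with at least 5 kb of eligible DNA. In the ecdysone and nuclear receptor group 11 of 11 such genes held a peak, at a median of 2.75 per 10 kb. Beside Eip75B, the receptor gene EcR had 25 peaks (10, 31 and 26 in the replicates) and the competence factor gene ftz-f1 had 16 (7, 16 and 21). The group's summed density was 2.04 in replicate 1, close to that replicate's 2.01 over all genes, and 2.73 and 3.06 in replicates 2 and 3.

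In the EGFR and FGF group 10 of 10 genes of this size held a peak, at a median of 2.57. Summed over all 14 listed genes, replicates 1, 2 and 3 had 2.26, 2.87 and 2.83. The feedback inhibitor gene sty and the FGF ligand gene ths had 10 peaks each and the EGFR ligand gene vn had 8. The neuroblast and glia group had the highest median, 3.77, over only 4 genes of this size, all with a peak. Summed over all 12 listed genes, the replicates had 2.34, 3.82 and 4.31. In this group brat, a brake on neuroblast growth, had 10 peaks, pros 6 and insc 3. The shares of these groups are near the background share.

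In the trachea and epidermis group 6 of 6 genes of this size held a peak, at a median of 2.54 per 10 kb, but replicate 2 gave 1.89 summed over the group, no higher than over all genes, beside 2.11 and 2.29 in replicates 1 and 3. The hypoxia factor gene sima had 25 peaks, trh 6 and grh 5. In the mesoderm and muscle group 8 of 9 did (median 2.23), led by the muscle transcription factor gene Mef2 with 13, Msp300 with 12 and the Z-disc gene Zasp52 with 9. In the Notch group 7 of 8 did (median 2.16), led by the coactivator gene mam with 21, the protease gene kuz with 12 and the ubiquitin ligase gene neur with 6. In both of these groups replicate 1 went the other way, with 1.68 for muscle and 1.95 for Notch genes beside its 2.01 over all genes, while replicates 2 and 3 had 2.90 and 2.56 for muscle and 2.56 and 2.68 for Notch genes.

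The remaining groups of long genes were near the overall median or below it. In the Hox group 6 of 8 genes of this size held a peak (median 1.91), with 13 each in Antp and Ubx and 7 in pb, and none in Dfd and Scr. Axon guidance and neuronal adhesion genes held peaks in 20 of 20 (median 1.65), among them Sema1a with 23 and Ten-m with 17. Of the segmentation genes only 3 reach this size, and all 3 held peaks (median 1.76).

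Synapse and ion channel genes were the sparsest group of long genes. Of 15 genes with at least 5 kb of eligible DNA 10 held a peak, at a median of 0.69 per 10 kb. The potassium channel gene Sh had 11 peaks over 101.2 kb (23, 10 and 9 in the replicates), the acetylcholine receptor gene nAChRalpha1 7 (19, 3 and 1) and the potassium channel gene slo 4 (10, 5 and 2). Replicate 1 was the highest in all 3. Summed over the group, replicate 1 had 1.96 peaks per 10 kb, close to its 2.01 over all genes of at least 5 kb, whereas replicates 2 and 3 had 0.762 and 0.581 against 1.90 and 1.91. Of 2 further groups of mostly short genes, 4 of 12 Polycomb genes and 4 of 86 genes of cytoplasmic ribosomal proteins held a peak. The share over all protein-coding genes was 17.8%. Per length the 2 groups had 2.35 and 3.02 per 10 kb, from 5 and 4 peaks over 21.2 and 13.2 kb. All genes with at least 5 kb had 1.82. The replicates gave 0.471, 4.24 and 3.30 for Polycomb genes and 0, 5.29 and 3.02 for ribosomal protein genes.

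**Figure D3:**
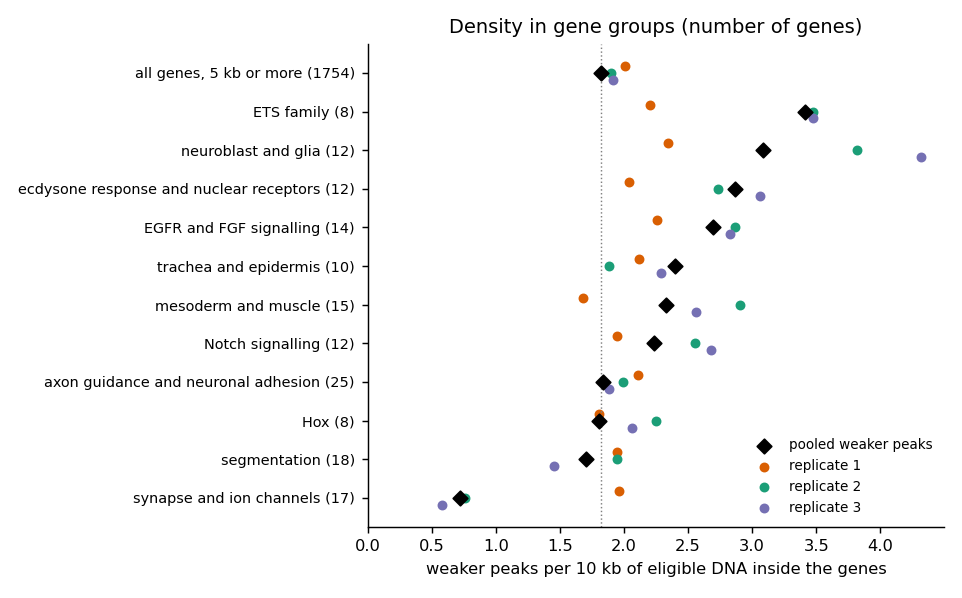
Weaker peaks per 10 kb of eligible DNA (horizontal axis), summed over all listed genes, of any size, in each group that has at least 3 genes with 5 kb or more (number of listed genes in brackets). Black diamonds are the pooled weaker peaks, coloured circles each replicate's own peaks under the same rule, and the dotted line is the pooled value of all genes with at least 5 kb, 1.82; replicates 2 and 3 spread from 0.581 to 4.31 over the groups and replicate 1 from 1.68 to 2.34.

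Between genes, the 4648 intergenic peaks were spread over 1767 gaps between protein-coding genes, 63 of which held 10 or more. The gap between comm, a regulator of Robo in axon crossing, and CG6244 held 32 peaks over 76.6 kb of eligible DNA. The gap between hng3 and CG13898 held 24 and that between the POU factor gene vvl and Prat2 held 23. The densest of the first 10 gaps, next to noc, a zinc finger gene of eye and wing, had 22 peaks in 26.2 kb, or 8.40 per 10 kb.

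More than every other peak had a neighbour. With a distance of 2000 bp between summits, 7349 peaks (52.7%) had another weaker peak nearby; in the replicates' own lists the share was 49.4%, 55.1% and 59.4%. For IDR peaks of the same places it was 16.3%, in a set with far fewer peaks: 1.27 per 100 kb of eligible DNA against 16.8. The shares that these densities alone would give were not computed, so neither share shows clustering. Runs of peaks spaced in this way numbered 2817, and 165 of them held 5 or more. The longest run had 15 peaks over 14.1 kb in sbb, which encodes a corepressor-type zinc finger protein; its signals ran from 18.4 to 68.1 and 4 of the peaks were in every list. A run of 13 lay between genes on 3R, from 16208112 to 16221855, 486 bp from an IDR peak at its nearest. Runs of 11 lay in HDAC4, a histone deacetylase gene, in an intergenic stretch of 3L from 11301766 to 11311117, and in Glut4EF.

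The word CACTG was the leading sequence feature of the weaker peaks. Among all 6-base words, with reverse complements merged, the word most enriched at summits over flanks was CAGTGC with a ratio of 1.69, followed by ACAGTG at 1.61, GTGCAC at 1.60 and ACACTG at 1.59. Central windows held the summit and 100 bases to each side, and flank windows were of equal size centred 500 bp to each side. Of the first 10 words 5 hold CACTG or its complement. CACTG itself, chosen after these counts were seen, was in 39.1% of central windows, in 28.0% of flank windows and in 27.9% of all 376396 windows of this length that tile the eligible DNA.

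All replicates showed the same direction. In their own weaker peaks CACTG was in 36.3%, 37.9% and 35.05% of central windows against 28.4%, 27.8% and 28.2% of flanks in replicates 1, 2 and 3. The difference was 8.26 points ± 1.65 (SD, n = 3; two-sided exact sign-flip permutation test p = 0.25, the smallest that 3 replicates can give). The replicates' central values did not overlap their flank values. Among the 160 words of 5 bases with 3 C or G, where the median ratio was 1.04, CACTG ranked 1 with 1.40 and the next, GTGCA, had 1.21. The word was chosen on the pooled peaks, which contain the reads of each replicate. Its rank and its shared direction are therefore a description and no independent support. The word was in 31.4% of the 690 windows of peaks found in no replicate's list and in 48.0% of the 2721 found in all.

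The share was higher in peaks of higher signal. CACTG was in 34.0% of windows below a signal of 20, in 43.4% at 30 to 40 and in 57.9% at 60 or more, while flank windows stayed between 27.6% and 29.1%. In IDR peaks of the same places 57.2% of summits and 30.1% of flanks held it. Over the replicates' own lists the share in weaker peaks minus that in IDR peaks was −18.2 points ± 2.05 (36.4% ± 1.42 against 54.6% ± 1.72, SD, n = 3; two-sided exact sign-flip permutation test p = 0.25). The layout also differed as a description: in weaker peaks the word was densest at the summit, with 13.4 sites per 100 peaks in the 50 bases before it, whereas in IDR peaks it had 26.2 and 24.5 sites at 51 to 100 bases before and 50 to 99 bases after the summit, and 14.99 in the 50 bases from the summit on. Weaker peaks at promoters and in coding exons held the word too, in 41.7% and 43.5% of central windows against 32.1% and 33.8% of flanks. Their ratios were 1.30 and 1.29, beside 1.40 in the weaker intronic and intergenic peaks. The word is therefore not particular to introns and intergenic DNA.

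Longer words carried larger ratios. In a count of 8-base words chosen after seeing the data, 8 of the first 10 held CACTG or its complement. CACTGAGA led with 2.53% of central against 0.656% of flank windows (ratio 3.85; 2.06, 3.17 and 2.52 in replicates 1, 2 and 3) and 0.714% of all tiling windows. The words CTCAGTGC (3.30), CAGTGCAC (3.15) and TACACTGA (2.98) overlap it or each other around the same core. In IDR peaks of the same places the ratio of CACTGAGA was 15.6. The hth window printed earlier holds this word at its first capitals, and the Pvf3 window holds CAGTGCAC at its own. No factor is assigned to these words here.

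**Figure D4:**
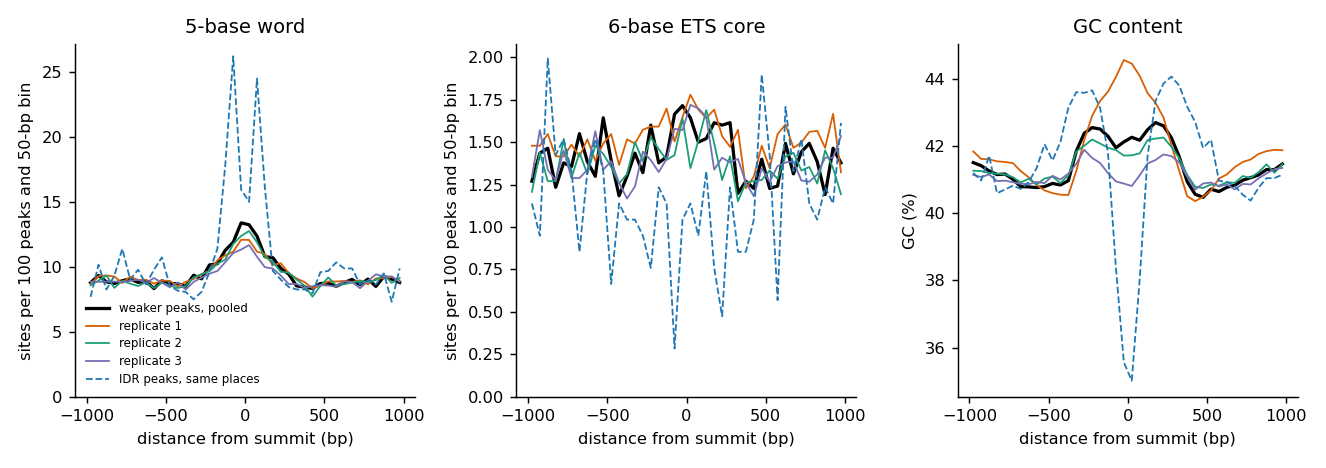
Sites of the 5-base word, sites of the 6-base ETS core (both per 100 peaks and 50-bp bin) and GC content (%) against distance from the summit in bp. The thick black line is the pooled weaker peaks, coloured lines the replicates' own weaker peaks and the dashed blue line IDR peaks in the same places; the word peaks at 13.4 sites at the summit of weaker peaks, the ETS core reaches 1.71, and GC content forms a single hump in replicate 1 and a dip to 35.01% in IDR peaks.

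The ETS core was slightly more frequent at the summits of the whole set, but not at the summits of highest signal. CCGGAA was in 5.97% of central windows against 4.96% of flanks and 5.10% of tiling windows, a ratio of 1.20, with 1.15, 1.10 and 1.20 in replicates 1, 2 and 3 (5.90% ± 0.351 against 5.13% ± 0.214, SD, n = 3; two-sided exact sign-flip permutation test p = 0.25). In the 356 peaks of signal 60 or more the core was found at 2.25% of summits and in 4.92% of flanks, a ratio of 0.457, while the ratio lay between 1.05 and 1.42 in each lower range of signal. The range next to it, 50 to 60, had the highest share of all ranges, 7.03% of 498 summits (ratio 1.35). The top range holds the fewest peaks, and its GC content was 36.7% at summits against 41.6% in flanks. Whether GC content lowers the ratio there was not tested. The longer ETS site CCGGAAGT had a ratio of 1.68 but was in only 78 windows, 0.56% of them. CGGAAG, part of that site, ranked among the first 10 words of 6 bases with 1.42. In IDR peaks of the same places CCGGAA was less frequent at the summit than in the flanks, 3.32% against 4.65%, and over the replicates' lists the weaker peaks were 2.12 points ± 0.259 higher than the IDR peaks (exact sign-flip permutation test p = 0.25). Weaker peaks elsewhere held the core more often than those described here. It was in 7.57% of central windows at promoters (ratio 1.11) and in 13.4% in coding exons (ratio 1.53). The core is therefore not particular to introns and intergenic DNA. The other ETS core, CAGGAA, was at 9.67% against 9.03%.

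Sites of other known factors had ratios on both sides of 1, some farther from 1 than the ETS core. GGTCACAC, a core promoter motif, had the highest at 1.47 (1.36, 1.27 and 1.26 in replicates 1, 2 and 3) but was in 56 windows. TGACGTCA, which CREB and ATF proteins bind, had 1.43 in 63 windows, and its replicates did not share a direction (1.06, 0.925 and 1.60). CACGTG, an E-box, had 1.35 (1.31, 1.16 and 1.14), and GAGAGA, the core bound by GAGA factor, had 1.14 (1.10, 1.19 and 1.15). TTCNNNGAA, the STAT site, had the lowest ratio, 0.832 (0.805, 0.903 and 0.888), and TAATTA, a homeodomain site, had 0.908 (0.812, 0.920 and 0.948), both below 1 in every replicate.

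Most of the other motifs had replicates on both sides of 1. AGATAA, which GATA-type zinc finger factors bind, had 0.949 (0.818, 0.941 and 1.07), and TATAAA, the TATA box, had 0.942 (0.724, 0.942 and 1.04). The Zelda site CAGGTAG had 1.14 (1.08, 1.16 and 0.885), and the Runt site TGTGGT had 1.04 (1.08, 1.08 and 0.959). The E-boxes CAGCTG and CAGGTG had 1.14 and 1.08, the AP-1 site TGANTCA had 1.06 and the repeat CACACACA had 1.11, while the run AAAAAAAA, at 0.968, was below 1 in every replicate. TATCGATA, the DREF element, was in 0.445% of central windows and 0.42% of flanks, a ratio of 1.06. In the replicates' own lists its ratio was below 1 each time (0.908, 0.877 and 0.966). In these lists it was in 0.361% ± 0.0309 of weaker intronic and intergenic windows and in 4.90% ± 0.744 of weaker promoter windows (SD, n = 3, exact sign-flip permutation test p = 0.25). A match is a description of the sequence and shows no binding.

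Base composition depended on the signal and on the replicate. Central windows of the weaker peaks had 42.1% GC against 40.7% in the flanks and 40.6% in tiling windows. The difference was 2.56 points below a signal of 20, 0.321 points at 30 to 40 and −4.88 points at 60 or more. In IDR peaks of the same places it was −5.10 points, with 36.8% at the summit, and in weaker peaks of coding exons the centre had 55.7%. Over the replicates' own lists GC at the summits of weaker peaks was 42.3% ± 1.74 and that of IDR peaks 37.7% ± 0.165 (SD, n = 3; exact sign-flip permutation test p = 0.25). Words rich in C and G had higher ratios in general, from a mean of 0.938 for 6-base words with 0 C or G to 1.15 for those with 6, so the ratios of the ETS core, with 4 C or G, stand beside a mean of 1.07 for 6-base words of that content.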

How the data were processed

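The members and gene lists were chosen with earlier results of these data known. Per the labels, each of 3 biological replicates was precipitated with an anti-GFP antibody; the authors deposited a peak list per replicate, a pooled list and an IDR list, in dm6 (used) and dm3 (not analysed here). Which aligner and peak caller they ran, and at what IDR level, is not given in the sources used here. The deposited columns were a signal value (a score of unstated scale) and −log10 q, both the authors'. Depth per sample is unknown. Summits were placed on Ensembl release 115 (BDGP6), arms X, 2L, 2R, 3L, 3R and 4; annotated transposon exons counted as exons. Sequence was RefSeq's dm6. A replicate supported a peak by an overlap of 1 bp. Shares carry Wilson and densities exact Poisson intervals (95%), covering counting error only. Replicates were compared by exact sign-flip tests on their own peaks under the same rule; p-values measure only the spread between 3 samples. Python 3.11.15, numpy 2.4.6, pandas 2.3.3 and scipy 1.17.1 were used, and the functions were tested on simulated data. The text names the 10 peaks of highest signal, the 15 protein-coding genes with most peaks, the first of the 10 densest, and up to 3 genes with and 2 without peaks per list. The 19 motifs were searched on both strands. CACTG and the 8-base words were chosen after seeing the data. Thresholds, annotation, windows, overlap and distances were varied.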

Additional observations from a re-analysis of the deposited data

How the results depend on the processing

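No paired analysis was possible because the samples form 1 group. Of 151 alternative values over 12 results, 88 moved by less than the spread between replicates (counts by less than 1.5 times), 57 moved by more and 6 changed direction; except where a rule admits fewer peaks, the cause was not tested. The share in introns stayed within that spread under each alternative run. With a −log10 q of at least 2 there were 1040 peaks, 1.25 per 100 kb, with 78.2% in all lists, 30.6% within 5000 bp of an IDR peak, 10.5% with a neighbour and 3.80% of genes hit. With the upper 0.5 of signals the values were 6969, 8.40, 33.9%, 37.7% with a neighbour and 12.99% of genes. Keeping peaks that both remaining lists held when a replicate was left out gave 3941 to 5713 peaks (28.3 to 41.0% of the 13938), 4.75 to 6.89 per 100 kb, 23.4 to 29.0% near an IDR peak, 35.2 to 45.0% with a neighbour and 9.00 to 11.2% of genes. Support in all lists was 13.5% at a 50% overlap and 8.32% with summits within 100 bp. Density was 15.5 with transposon exons not counted as exons. Within 1000 and 20000 bp of an IDR peak lay 4.57% and 56.4% of peaks, and 30.7% and 78.4% had a neighbour within 1000 and 5000 bp. Genes hit were 14.9% with a TSS distance of 1000 bp and 33.0% by nearest TSS. For CACTG the ratio of summits to flanks was 1.84 at the stricter q, 1.53 in the upper signals, 1.48 and 1.22 in windows of 50 and 200 bp to each side, 1.33 with flanks 1000 bp away, 1.29 in the replicates' own peaks (1.26 to 1.32 without each in turn, 1.30 without replicate 1) and 1.53 to 1.65 in peaks shared by the remaining lists. For CCGGAA it was 1.10 at the stricter q, 1.12 in 200 bp windows, 1.12 with far flanks, 1.15 in own peaks (1.12 to 1.18) and 1.17 to 1.28 in shared peaks. GAGAGA gave 1.27, 1.23 in the upper signals, 1.08 in 50 bp windows, 1.10 to 1.15 in shared peaks and 1.12 to 1.17 in own peaks. AGATAA turned above 1 at the stricter q (1.41), in peaks shared without replicate 1 (1.00211) or 3 (1.02) and in own peaks without replicate 1 (1.01); the ranges were 0.985 to 1.02 and 0.880 to 1.01. The GC difference turned to −3.92 points at the stricter q and −0.484 without replicate 1, with ranges of −0.484 to 0.287 in shared and 0.462 to 2.26 in own peaks. Peak calls near the lowest q are the least certain, and without reads a weak site cannot be told apart from background.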
